A study of Homo sapiens with 6 samples.

Results

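Genes of protein folding, protein export and waste disposal in the endoplasmic reticulum (ER) were examined as a set of 36, taken by symbol from a gene count table of 57820 rows. The list holds the chaperones and disulfide enzymes of the ER, the machinery of ER-associated degradation (ERAD), and the genes of the XBP1 and ATF6 branches of the unfolded protein response (UPR). All 36 were found in the table, all 36 passed the filter on low counts, and each matched a single row. The measured cells were HEK293, an established line of human embryonic kidney origin. They were kept for 12 h with 100 µM minocycline, a tetracycline antibiotic, or with its solvent dimethyl sulfoxide (DMSO, called vehicle here), and none were heat shocked. Each group had 3 libraries of total RNA, which the series' design text calls biological replicates. The only contrast is minocycline against vehicle, in a single cell line at a single dose and time.

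The ER lumen is where secreted and membrane proteins fold, and its chaperones keep unfolded chains from clumping while disulfide isomerases make and rearrange their bonds. When unfolded chains pile up, 3 sensors in the ER membrane respond. ATF6 is cut and releases a transcription factor. IRE1, encoded by ERN1, removes a short segment from the XBP1 mRNA so that an active transcription factor is made. PERK, encoded by EIF2AK3, slows translation and favours ATF4. ATF6 and spliced XBP1 bind upstream of chaperone and ERAD genes, and ATF4 acts on amino acid and stress genes.

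No ER gene rose or fell past the threshold with minocycline. Of the 36, 32 had a higher and 4 a lower fitted level in minocycline cells, with a median log2 fold change of 0.27 against 0.01 over all 17225 genes tested. XBP1 stood closest to a call, at 150 ± 10.4 CPM in minocycline cells and 102 ± 10.4 CPM in vehicle cells (CPM, counts relative to the TMM-scaled library total, mean ± SD, n = 3 each). The major chaperone gene HSPA5 averaged 277 ± 36.5 CPM in minocycline cells and 227 ± 82.5 CPM in vehicle cells, and its groups overlapped. In SDF2L1 and SEC61B the averages lay the other way. How many of these genes were called depended on 1 vehicle library, described below.

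Counts were compared with edgeR's quasi-likelihood test over the whole table, and a gene was called where its p, adjusted by Benjamini-Hochberg over every gene tested, was under 0.05. Called genes made up 0.0522% of those tested, all of them higher, and 0 of the 36 ER genes were among them. DESeq2 and limma-voom likewise called 0 of the 36, where they called 0.302% and 0.0639% of all genes. At an unadjusted p under 0.05 edgeR listed 6 of the 36, against 4.7% of all genes. In 5 ER genes every minocycline library lay above every vehicle library, an arrangement found in 5.74% of all genes, and in 1 every minocycline library lay below, found in 3.56%. Both arrangements together held 6 of the 36 and 9.31% of all genes. CPM is a share of the RNA counted from many cells, in which a change in total RNA cannot be seen and fewer expressing cells cannot be told apart from less RNA per cell.

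Total counts per library were 17303180 to 17835756, and all the ER genes had at least 132 counts in each library. The labelled cell line was checked against 4 markers of HEK293 cells (NEFM, INA, L1CAM and VIM), which summed to 741 to 967 CPM in minocycline libraries and 621 to 891 CPM in vehicle libraries. VIM, at 512 to 855 CPM, made up most of each of these sums. Of 10 markers of leukocytes, hepatocytes, endothelium, fibroblasts and keratinocytes, 8 stayed under 1 CPM in every library. These 10 summed to 55.2 to 73.5 CPM in minocycline libraries and 76.2 to 83.9 CPM in vehicle libraries, mostly from COL1A1, and none was at 0 in all libraries. Whether that difference has a part in the ER results was not tested. On the first principal component of all genes, which held 52.9% of the variance, vehicle replicate 1 (-34.9) lay beside minocycline replicates 2 (-32.3) and 1 (-14.0), while minocycline replicate 3 was at 3.06 and vehicle replicates 2 and 3 were at 31.1 and 47.1. Differences in culture, in library preparation or in labelling cannot be told apart in these counts, and every vehicle mean of 3 given here includes that library. Its level of CHAC1, a gene called higher with minocycline, was the lowest of the 6 libraries at 7.45 CPM. That call counted vehicle replicate 1 as vehicle, so the CHAC1 value is no independent check of its label, which was not tested.

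**Figure D1:**
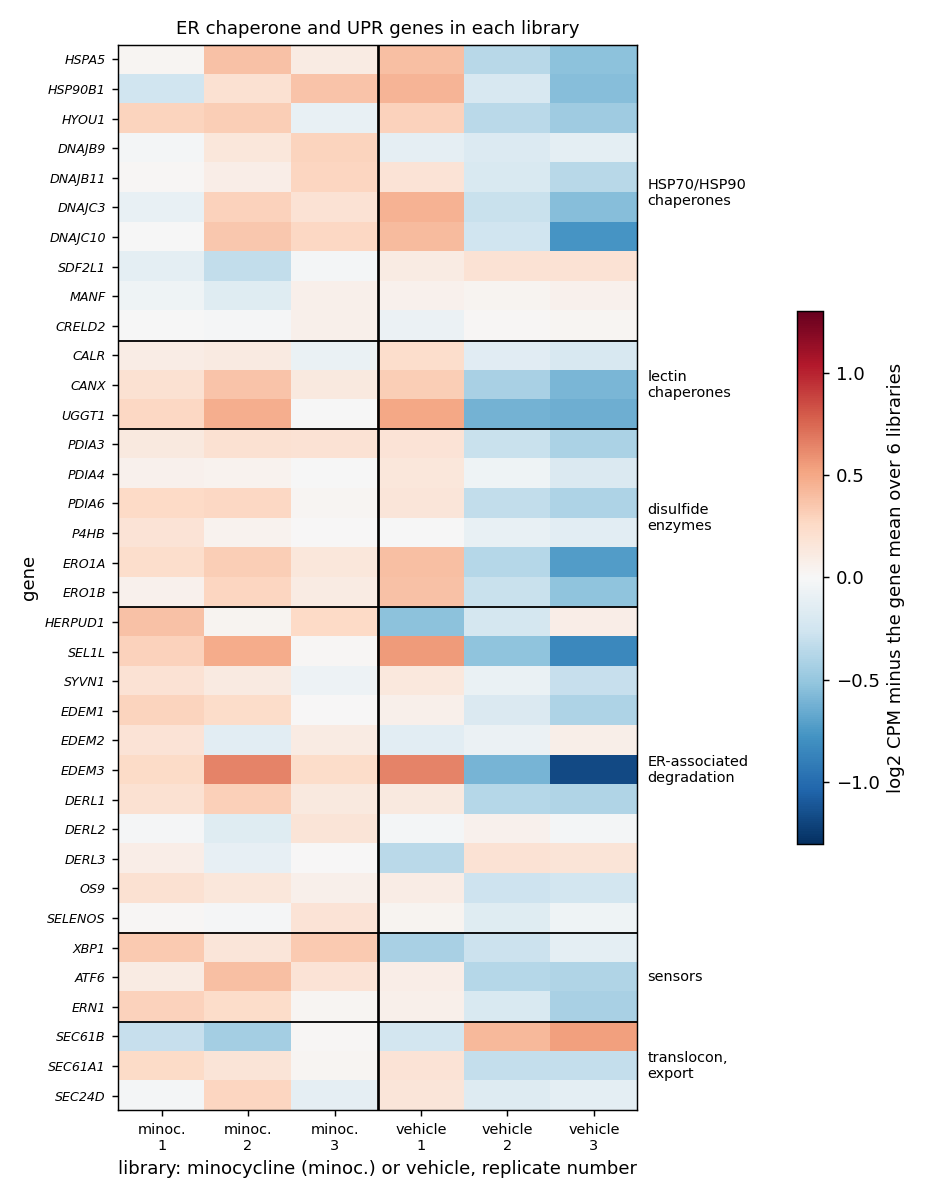
Level of each of the 36 ER genes in each of the 6 libraries, as log2 CPM minus the mean of that gene over the 6 libraries (colour, red higher and blue lower), with genes in rows grouped by role and libraries in columns, minocycline left. Vehicle replicates 2 and 3 are low for most chaperone and ERAD genes, vehicle replicate 1 resembles the minocycline libraries there, and XBP1 is lower in all 3 vehicle libraries.

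XBP1 (ENSG00000100219.12, chromosome 22 from 29190543 to 29196585, minus strand, GRCh37), grouped here with the sensor genes, encodes the transcription factor of the IRE1 branch. Its counts were 2857, 2536 and 2725 in minocycline replicates 1, 2 and 3, against 1694, 1704 and 1866 in vehicle replicates 1, 2 and 3. Scaled, these were 156, 138 and 156 CPM with minocycline and 92.1, 102 and 113 CPM with vehicle, so that the groups did not overlap and vehicle replicate 1 was the lowest library. The log2 fold change was 0.55 ± 0.13 (SE), with an adjusted p of 0.576 over all genes. XBP1 lay between 0.48 and 0.65 over 18 alternative analyses and was called in 2 of them, with 1 surrogate variable as a covariate (adjusted p = 0.00115) and with vehicle replicate 1 left out (adjusted p = 0.0134). Over the 18 its adjusted p ran from 0.00115 to 1.

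The deposited counts are sums over the gene and cannot separate the 2 forms of XBP1 mRNA. A segment whose loss gives the spliced form is shown here. In the GENCODE transcripts mapped to GRCh37 it spans 26 bases (capitals) at chr22:29192112-29192137, minus strand, and is printed with 30 bases on each side. It is the only stretch of that length in XBP1 transcripts with the IRE1 cleavage motif CNGCAG just before it and at its end. Of 6 annotated XBP1 transcripts, 4 hold it and 1, the canonical one, joins the flanks without it. The bases CAG end both copies of the motif. A stretch of the same length that starts at the first of these CAG and ends before the second leaves the same joined sequence. The capitals thus need not mark the exact cut positions within the motif, which were not determined.
XBP1 splice segment: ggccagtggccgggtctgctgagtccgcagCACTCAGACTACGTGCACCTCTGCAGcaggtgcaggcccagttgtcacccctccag
A difference in XBP1 counts is thus a difference in total XBP1 RNA, and the share that was spliced was not measured.

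ATF6, the sensor that is itself a transcription factor (chromosome 1 from 161736088 to 161947364, plus strand), had 36.2, 44.3 and 38.1 CPM in minocycline libraries, against 35.9, 26.1 and 25.7 CPM in vehicle libraries. The groups were separated only by the small gap between minocycline replicate 1, with 663 counts, and vehicle replicate 1, with 660. Its log2 fold change was 0.44 ± 0.17 (adjusted p = 0.82). ERN1, the IRE1 gene, had 19.0, 18.2 and 15.7 CPM with minocycline and 16.1, 13.4 and 11.5 CPM with vehicle. Vehicle replicate 1 lay above minocycline replicate 3, and the log2 fold change of ERN1 was 0.36 ± 0.18 (adjusted p = 0.82). XBP1, ATF6 and ERN1 together summed to 211, 200 and 210 CPM in minocycline libraries, against 144, 141 and 150 CPM in vehicle libraries. XBP1, which is not a sensor, made up most of each sum.

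**Figure D2:**
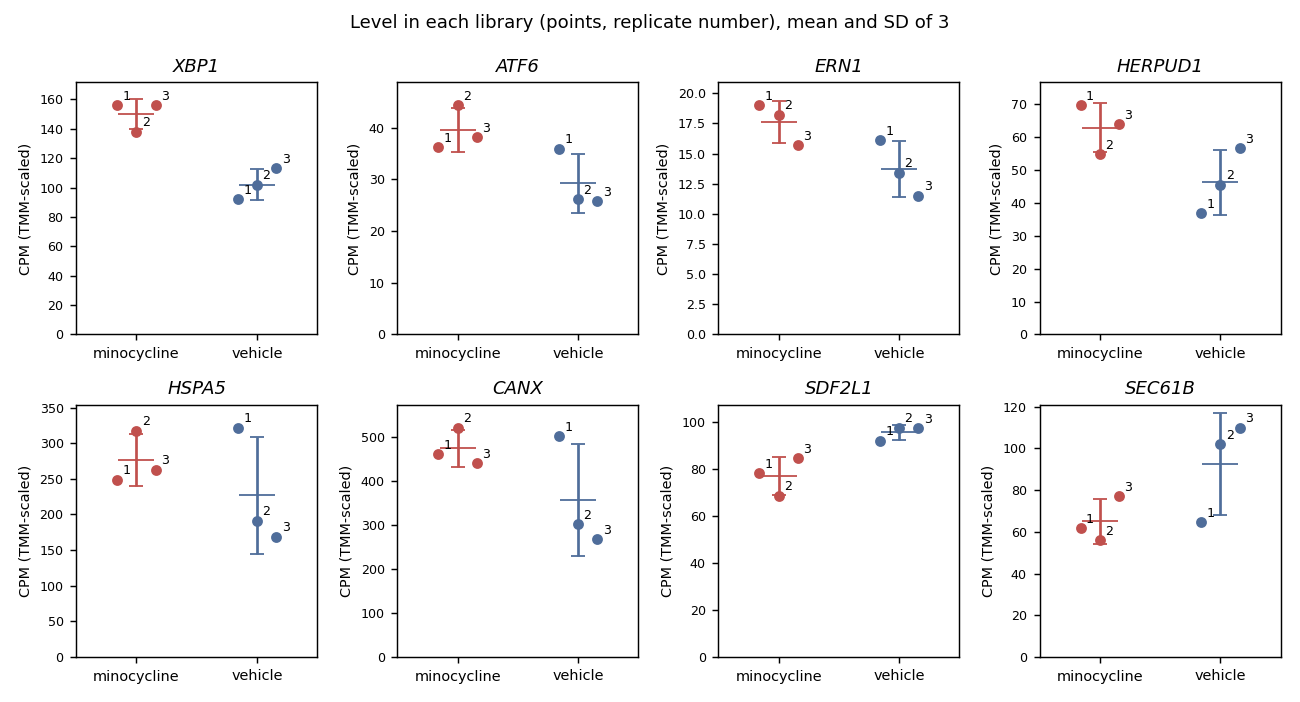
TMM-scaled CPM of 8 ER genes in the 3 minocycline (left, red) and 3 vehicle (right, blue) libraries, with points numbered by replicate, dashes for the mean and bars for the SD. XBP1 and SDF2L1 show separated groups, and those of ATF6 are separated by a small gap (36.2 against 35.9 CPM). HSPA5 and CANX show vehicle replicate 1 at the height of the minocycline libraries, and in SEC61B vehicle replicate 1 lies among the minocycline libraries.

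The HSP70 and HSP90 chaperones hold client proteins in the ER lumen, and their J-domain and nucleotide-exchange partners drive the cycle. Their 10 genes summed to 1040, 1210 and 1200 CPM in minocycline replicates 1, 2 and 3, against 1320, 934 and 827 CPM in vehicle replicates 1, 2 and 3. The highest and the lowest sums were thus both vehicle libraries. Fitted levels were higher with minocycline in 8 of the 10 and lower in 2, with log2 fold changes of -0.31 to 0.34 and a median of 0.22.

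HSPA5, which encodes the HSP70 chaperone BiP and is the usual readout of the UPR, was chosen for full description after its values were seen. It had 249, 318 and 263 CPM with minocycline, against 322, 191 and 169 CPM with vehicle. The highest library was vehicle replicate 1, so that the groups overlapped although the other vehicle libraries were below all minocycline libraries. Its log2 fold change was 0.28 ± 0.23 (adjusted p = 0.826), and 0.62 ± 0.13 (adjusted p = 0.00669) without vehicle replicate 1. HSP90B1, the ER form of HSP90, chosen likewise, had 242, 332 and 375 CPM with minocycline and 394, 250 and 197 CPM with vehicle. Its highest value was likewise in vehicle replicate 1, and its log2 fold change was 0.18 ± 0.25 (adjusted p = 0.881).

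DNAJB9, a J-domain partner of BiP, had 10.2, 11.5 and 12.7 CPM in minocycline libraries, against 9.56, 9.14 and 9.49 CPM in vehicle libraries. All minocycline libraries were above all vehicle libraries, which lay close together, and the log2 fold change was 0.29 ± 0.16 (adjusted p = 0.82). DNAJB11, another J-domain partner, had 99.6, 105 and 120 CPM with minocycline and 112, 86.2 and 76.8 CPM with vehicle, a log2 fold change of 0.24 ± 0.16 (adjusted p = 0.82) with overlapping groups. The cochaperones DNAJC3 and DNAJC10 and the nucleotide exchange factor HYOU1 showed 0.20, 0.34 and 0.31, each with overlapping groups.

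SDF2L1, a small luminal partner of the J-domain proteins (chromosome 22 from 21996591 to 21998588, plus strand), had 78.3, 68.6 and 84.5 CPM in minocycline libraries, against 92.0, 97.6 and 97.3 CPM in vehicle libraries. It was the only 1 of the 36 with every minocycline library below every vehicle library, and its log2 fold change was -0.31 ± 0.13 (adjusted p = 0.82). No alternative called SDF2L1, and its log2 fold change stayed between -0.39 and -0.17. MANF, a secreted ER stress protein, and CRELD2, a folding factor often measured with it, had log2 fold changes near 0. MANF averaged 62.9 ± 4.91 CPM with minocycline and 67.4 ± 0.421 CPM with vehicle (-0.10 ± 0.12). CRELD2 averaged 78.4 ± 2.25 CPM with minocycline and 76.9 ± 2.93 CPM with vehicle (0.03 ± 0.11). The fitted changes of these chaperone partners thus had both signs, and differences between the genes were not tested.

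The lectin chaperones bind the sugar chains of new glycoproteins, and UGGT1 marks those that are still misfolded. CANX, the membrane-bound calnexin, had 461, 521 and 440 CPM with minocycline, against 502, 301 and 267 CPM with vehicle. UGGT1 had 117, 135 and 96.9 CPM with minocycline and 138, 63.5 and 62.8 CPM with vehicle. In both genes vehicle replicate 1 was at or above the middle of the minocycline libraries and the other vehicle libraries were below all of them. The log2 fold changes were 0.41 ± 0.23 for CANX and 0.40 ± 0.29 for UGGT1 (adjusted p = 0.82 for both). CALR, the soluble calreticulin, had 443, 449 and 391 CPM with minocycline and 484, 375 and 358 CPM with vehicle, and its log2 fold change of 0.08 ± 0.15 (adjusted p = 0.91) was under its error.

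The disulfide enzymes were all fitted higher, at log2 fold changes of 0.05 to 0.39 with a median of 0.28 over 6 genes. PDIA6 and PDIA3, both protein disulfide isomerases, showed 0.35 ± 0.17 and 0.32 ± 0.16 (adjusted p = 0.82 for both). PDIA6 had 143, 144 and 121 CPM with minocycline, against 133, 95.4 and 90.2 CPM with vehicle. PDIA3, which works with the lectin chaperones, had 171, 179 and 178 CPM with minocycline and 177, 128 and 117 CPM with vehicle. Vehicle replicate 1 lay within the range of the minocycline libraries in both.

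P4HB, the founding disulfide isomerase, had 415, 379 and 368 CPM in minocycline libraries, against 366, 342 and 333 CPM in vehicle libraries. Its groups were separated by a narrow gap, and its log2 fold change was 0.16 ± 0.12 (adjusted p = 0.825). ERO1A, the oxidase that recharges the isomerases, had 61.0, 64.8 and 57.5 CPM with minocycline and 68.3, 40.2 and 31.4 CPM with vehicle, a log2 fold change of 0.39 ± 0.25 (adjusted p = 0.82). Its paralogue ERO1B and the isomerase PDIA4 showed 0.24 ± 0.23 and 0.05 ± 0.13, and both had their highest value in vehicle replicate 1.

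The ERAD genes recognise misfolded proteins (EDEM1, EDEM2, EDEM3, OS9), pass them through the membrane (DERL1, DERL2, DERL3, SEL1L, SELENOS) and mark them with ubiquitin (SYVN1, with HERPUD1 as its scaffold). Of the 11, 10 had a higher and 1 a lower fitted level, with log2 fold changes of -0.03 to 0.56. HERPUD1 (chromosome 16 from 56966054 to 56978776, plus strand) had 69.7, 54.9 and 63.9 CPM with minocycline, against 36.9, 45.5 and 56.6 CPM with vehicle. Vehicle replicate 1 was the lowest library and vehicle replicate 3 lay just above minocycline replicate 2. Its log2 fold change was 0.44 ± 0.18 (adjusted p = 0.82). With 1 surrogate variable, where XBP1 and HERPUD1 were the only calls among the 36 and 0.528% of all genes were called (0.482% higher and 0.0464% lower), it was at 0.64 (adjusted p = 0.0117), and without vehicle replicate 1 it was 0.30 (adjusted p = 0.147).

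DERL1, a channel component, had 56.5, 61.4 and 53.8 CPM with minocycline, against 53.8, 38.3 and 37.8 CPM with vehicle. Every minocycline library was above every vehicle library only before rounding, since minocycline replicate 3 and vehicle replicate 1 were nearly equal. The log2 fold change of DERL1 was 0.40 ± 0.16 (adjusted p = 0.82). EDEM1, which passes mannose-trimmed glycoproteins to degradation, had 59.7, 57.6 and 48.9 CPM with minocycline and 51.2, 43.0 and 36.9 CPM with vehicle, a log2 fold change of 0.34 ± 0.16 (adjusted p = 0.82). Vehicle replicate 1 lay above minocycline replicate 3.

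EDEM3 and SEL1L were also chosen for description after their values were seen, because vehicle libraries differed most in them. EDEM3 had 21.4, 28.2 and 21.3 CPM with minocycline, against 28.2, 11.9 and 7.98 CPM with vehicle. SEL1L, the partner of the ubiquitin ligase SYVN1, had 41.5, 47.1 and 34.1 CPM with minocycline and 49.6, 23.5 and 18.9 CPM with vehicle. Their log2 fold changes of 0.56 ± 0.39 and 0.42 ± 0.32 carried the largest standard errors of the 36. The remaining ERAD genes showed 0.27 ± 0.14 for OS9, 0.16 ± 0.15 for SYVN1, 0.12 ± 0.13 for SELENOS, 0.10 ± 0.15 for EDEM2, 0.00 ± 0.13 for DERL2 and -0.03 ± 0.18 for DERL3. These 6 had overlapping groups.

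Entry into and exit from the ER were represented by 3 genes. SEC61B, the small beta subunit of the translocon (chromosome 9 from 101984346 to 101992897, plus strand), had 61.7, 56.1 and 77.0 CPM in minocycline libraries, against 64.5, 102 and 110 CPM in vehicle libraries. Vehicle replicate 1 lay within the minocycline range and the log2 fold change was -0.51 ± 0.21 (adjusted p = 0.82). SEC61A1, the channel subunit of the same complex, had 298, 282 and 255 CPM with minocycline and 283, 203 and 203 CPM with vehicle, a log2 fold change of 0.28 ± 0.16 (adjusted p = 0.82). The fitted changes of these translocon partners had opposite signs, and neither passed. SEC24D, a cargo adaptor of the COPII coat, had 17.8, 22.0 and 16.7 CPM with minocycline and 20.3, 16.2 and 16.6 CPM with vehicle, a log2 fold change of 0.09 ± 0.17 (adjusted p = 0.907).

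Leaving out vehicle replicate 1 changed the picture for the ER genes. With it left out, 21 of the 36 were called higher and 1, SEC61B, lower, where 17.9% of 17658 genes were called, 9.52% higher and 8.34% lower. Leaving out any other library gave 0 calls among the 36. The median log2 fold change of the ER genes was 0.46 without vehicle replicate 1, 0.20 without vehicle replicate 2 and 0.14 without vehicle replicate 3, against 0.27 with all libraries. EDEM3 then showed 1.25 ± 0.19 (adjusted p = 0.00157), SEL1L 0.95 ± 0.16 (adjusted p = 0.00256), UGGT1 0.88 ± 0.14 (adjusted p = 0.00168) and CANX 0.74 ± 0.13 (adjusted p = 0.00247). Vehicle replicates 2 and 3 then lie beyond all minocycline libraries on the first principal component, so that treatment and that component cannot be told apart in this setting. The labels put the libraries in 3 batches of 1 minocycline and 1 vehicle library. The median difference of the 36 genes (log2, minocycline minus vehicle) was -0.04 in batch 1, which holds vehicle replicate 1, and 0.42 and 0.40 in batches 2 and 3.

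**Figure D3:**
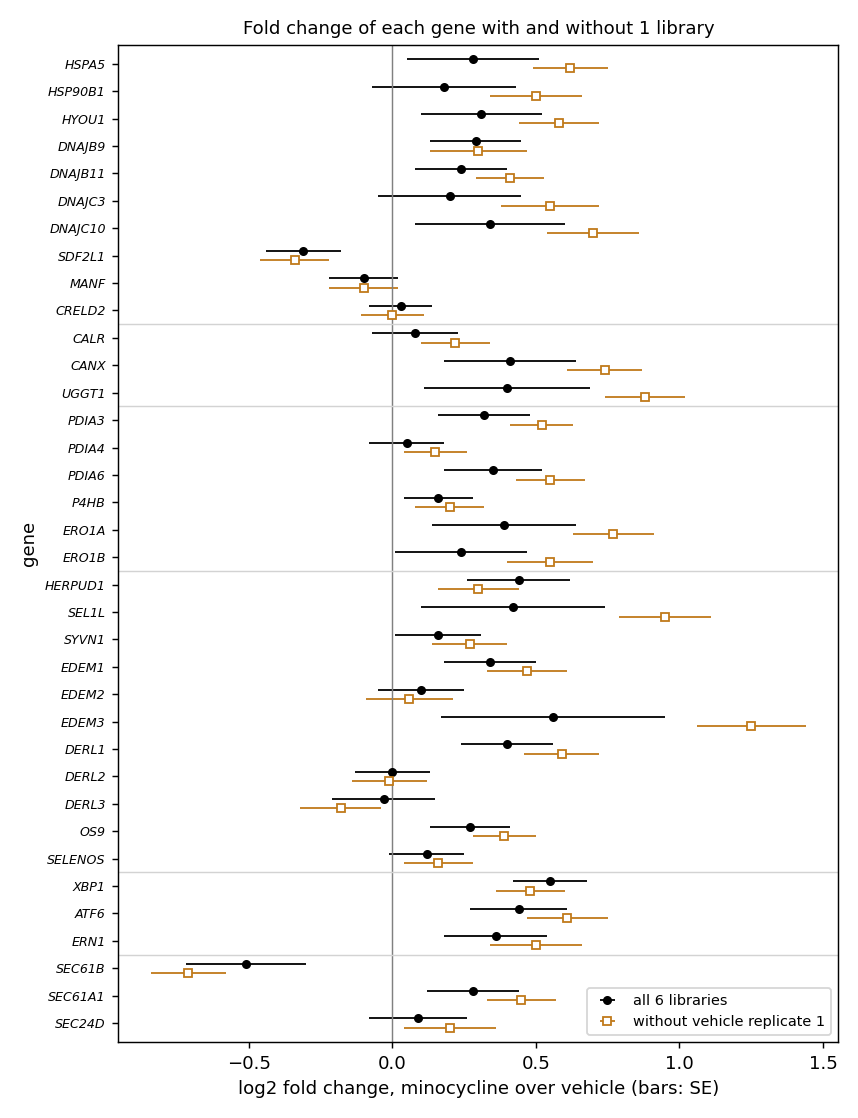
Log2 fold change of minocycline over vehicle for each of the 36 ER genes, with bars of 1 SE, from all 6 libraries (black circles) and without vehicle replicate 1 (open squares). Most chaperone, lectin, disulfide and ERAD genes shift right without that library and have shorter bars, SEC61B shifts left, and XBP1, SDF2L1, MANF and CRELD2 change little.

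Vehicle replicate 1 exceeded both other vehicle libraries in 28 of the 36 genes (77.8%), as in 43.9% of all genes tested, and was the highest of the 6 libraries in 10 (27.8% against 20.4%). Set against the mean of vehicle replicates 2 and 3, it was more than 0.15 higher on the log2 scale in 24 genes, within 0.15 in 8 and more than 0.15 lower in 4. The last 4 were XBP1 (-0.22), HERPUD1 (-0.46), DERL3 (-0.51) and SEC61B (-0.72). The 8 steady genes were CRELD2, DERL2, DNAJB9, EDEM2, MANF, P4HB, SDF2L1 and SELENOS.

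That difference among vehicle libraries moved with transcript length. In the 14 ER genes whose canonical transcript has 4000 bases or more, its median was 0.80 (-0.04 to 1.48), and in the 9 with under 2000 bases it was -0.08 (-0.72 to 0.45). Over all genes tested with a length, the same medians were 0.32 and -0.30. Across the 36 genes, which share the same libraries and are not independent replicates, Spearman's rho with length was 0.70, and it was 0.47 across 16515 genes. With the GC content of the exons rho was -0.55 across the 36 and -0.43 across the 16515, and length and GC content were not separated. A correction of each library for exon length and GC content used the length of all annotated exons of a gene together. That length differs from the canonical transcript length used above, as in HSP90B1 (13092 against 2782 bases). After this correction the median log2 fold change of the ER genes was 0.19, where that of all genes was -0.03, and 0 of the 36 were called. XBP1 was then at 0.52 (adjusted p = 0.211), HERPUD1 at 0.34 and HSPA5 at 0.20.

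**Figure D4:**
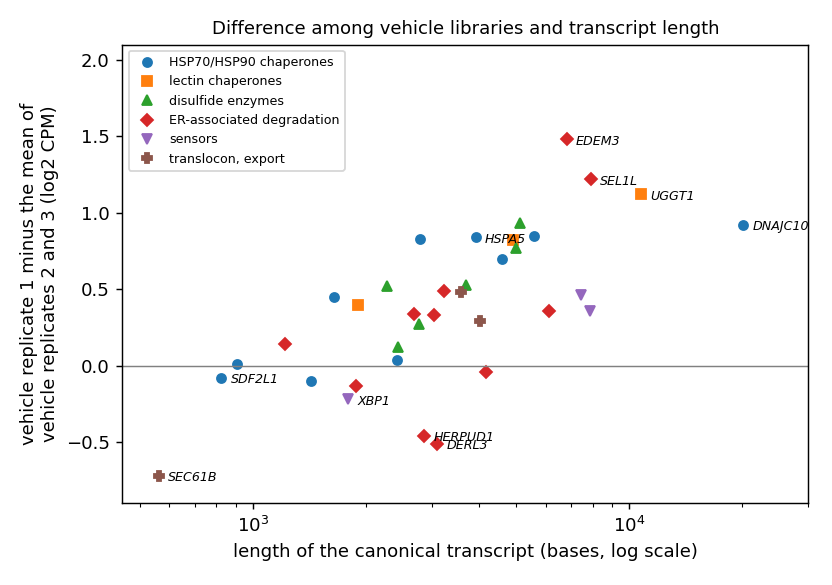
Difference between vehicle replicate 1 and the mean of vehicle replicates 2 and 3 (log2 CPM) against the length of the canonical transcript (bases, log scale) for the 36 ER genes, 1 point a gene, marked by role. EDEM3, SEL1L and UGGT1, with long transcripts, lie highest at 1.12 to 1.48, and SEC61B, the shortest, lies at -0.72. Other long transcripts lie lower, such as ATF6 at 0.46, ERN1 at 0.36 and DERL2 at -0.04.

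Levels of different genes were compared per kilobase of the canonical transcript, over the 6 libraries. CALR had the highest mean, at 219 CPM per kilobase (188 to 255). P4HB at 151 (137 to 170) and SEC61B at 140 (99.5 to 196) followed, and the range of SEC61B overlaps those of both CALR and P4HB. HSP90B1 (107), SDF2L1 (105) and CANX (84.5) came next, and HSPA5 was at 64.3 (43.1 to 82.1). XBP1, at 70.4 (51.4 to 87.2), was as abundant as several chaperones, whereas the sensor genes ATF6 (4.60) and ERN1 (1.98) were near the bottom of the order. EDEM3 (2.90), DNAJC3 (3.02) and DNAJC10 (3.04) were the lowest apart from ERN1.

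The start regions of the genes were compared for the DNA elements through which ATF6 and XBP1 are known to act. RefSeq windows of 250 bases before the transcription start (GRCh38.p14) were found for 32 of the 36, and PDIA3, DERL1, DERL3 and SEC24D had none. Of the 32, 5 (CANX, PDIA4, PDIA6, SEC61A1 and XBP1) had more than 1 annotated start, and a gene was counted, here and over all genes, where any of its windows held the element. The windows were searched on both strands for the ER stress response element ERSE (CCAAT, then 9 bases of any kind, then CCACG), for ERSE-II (ATTGG, any base, CCACG), for the core of the unfolded protein response element (TGACGTGG) and for a core of the C/EBP-ATF element bound by ATF4 (TGATGNAA). ERSE and ERSE-II each contain a CCAAT box. ERSE was present in 8 of 32 genes (25%), namely HSPA5, HSP90B1, CRELD2, CALR, CANX, PDIA6, ERO1B and XBP1, against 25 of 27305 genes in the whole table of windows (0.0916%). ERSE-II was present in HYOU1, SDF2L1 and HERPUD1 (9.38% of the 32, against 0.0659% of all). The UPRE core was found in HYOU1 and DNAJC10 (0.78% of all genes hold it), the C/EBP-ATF core in HERPUD1 alone (3.89% of all), and a CCAAT box in 26 of 32 (37% of all). Genes of the ATF6 and XBP1 branches were put on the list of 36 as such, so these shares describe the list and test nothing.

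Of the genes with ERSE, CANX held it in 2 of 4 windows, PDIA6 in 1 of 2 and XBP1 in 1 of 2. The 4 windows printed here belong to the chaperone that marks the UPR, to both genes that were called with a surrogate variable, and to the gene with minocycline libraries below vehicle. Capitals mark ERSE in HSPA5 and XBP1, ERSE-II in HERPUD1 and SDF2L1, and, as the first run of capitals in HERPUD1, the C/EBP-ATF core. Each runs 5′ to 3′ on the gene's own strand and ends 1 base before the RefSeq transcription start.
HSPA5, chr9:125241344-125241593, minus strand: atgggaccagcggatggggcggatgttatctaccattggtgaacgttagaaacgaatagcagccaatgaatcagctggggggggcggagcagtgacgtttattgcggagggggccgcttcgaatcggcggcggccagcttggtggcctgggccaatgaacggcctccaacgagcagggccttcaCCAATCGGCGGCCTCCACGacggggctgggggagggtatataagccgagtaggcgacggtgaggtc
XBP1, chr22:28800570-28800819, minus strand: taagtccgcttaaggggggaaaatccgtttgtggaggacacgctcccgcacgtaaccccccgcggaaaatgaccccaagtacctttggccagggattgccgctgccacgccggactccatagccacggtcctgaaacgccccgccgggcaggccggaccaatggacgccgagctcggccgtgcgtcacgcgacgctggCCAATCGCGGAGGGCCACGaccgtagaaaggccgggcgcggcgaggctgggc
HERPUD1, chr16:56931892-56932141, plus strand: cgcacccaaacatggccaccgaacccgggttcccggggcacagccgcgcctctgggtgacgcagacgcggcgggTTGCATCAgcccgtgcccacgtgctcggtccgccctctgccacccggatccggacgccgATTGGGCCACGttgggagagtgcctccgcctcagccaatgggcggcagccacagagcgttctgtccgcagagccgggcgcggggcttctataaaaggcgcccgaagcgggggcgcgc
SDF2L1, chr22:21642052-21642301, plus strand: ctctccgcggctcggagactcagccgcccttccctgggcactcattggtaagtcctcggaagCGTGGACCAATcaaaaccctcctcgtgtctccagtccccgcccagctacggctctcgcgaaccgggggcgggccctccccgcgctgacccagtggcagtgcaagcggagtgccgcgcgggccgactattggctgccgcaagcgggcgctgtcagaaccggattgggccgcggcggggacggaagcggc
The ERSE lies 66 to 48 bases before the start in HSPA5 and 52 to 34 bases before it in XBP1. The ERSE-II lies 117 to 107 bases before the start in HERPUD1 and 188 to 178 bases before it in SDF2L1. The SDF2L1 match and the C/EBP-ATF core of HERPUD1 are on the opposite strand. A match says only that these letters are in the window.

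Fitted changes of genes with and without these elements covered overlapping ranges. Only exact matches were counted, so genes counted as without an element may hold a near match. The 8 genes with ERSE had log2 fold changes of 0.03 to 0.55 (median 0.26), and the 24 without it had -0.51 to 0.56 (median 0.28). Those with ERSE-II were split, with HERPUD1 at 0.44, HYOU1 at 0.31 and SDF2L1 at -0.31. With vehicle replicate 1 left out, the medians were 0.52 with ERSE and 0.40 without it. For ERSE-II they were 0.30 with and 0.47 without. No test was made between these sets.

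Other genes of the same pathway were described from lists by function. The lists were chosen with earlier results of these data known, so their medians and counts of calls describe them and test nothing. Their names give function only, and no pathway activity was measured. The 11 measured genes of the PERK arm had a median log2 fold change of 0.75, with 10 fitted higher, 1 called higher and 0 called lower, where 0.0522% of all genes were called. DESeq2 called 2 of them and limma-voom 1, where these tools called 0.302% and 0.0639% of all genes. At an unadjusted p under 0.05 edgeR listed 5, against 4.7% of all genes. The called gene was CHAC1, which degrades glutathione, at 55.4 ± 5.64 CPM in minocycline cells and 11.8 ± 3.77 CPM in vehicle cells (log2 fold change 2.24 ± 0.24, adjusted p = 0.0127). CHAC1 passed in 15 of 18 alternatives, at log2 fold changes of 1.99 to 2.57, and did not pass with a minimum fold of 1.5 (adjusted p = 0.0511), without minocycline replicate 1 (adjusted p = 0.162) or without minocycline replicate 3 (adjusted p = 0.18). SESN2, a stress-induced brake on mTORC1, averaged 102 ± 13.0 CPM with minocycline and 57.4 ± 12.7 CPM with vehicle (0.83 ± 0.18, adjusted p = 0.439). SESN2 passed in 6 of 18 alternatives, DESeq2 and the length and GC correction (adjusted p = 0.0258) among them, with adjusted p from 0.000773 to 1. In this list vehicle replicate 1 lay below the mean of the other vehicle libraries by a median of -0.58 on the log2 scale, whereas in the 36 ER genes it lay above by a median of 0.38. Of the 36, the 4 that were more than 0.15 below are XBP1, HERPUD1, DERL3 and SEC61B, as given above.

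Of 33 other ER folding enzymes, 30 were fitted higher and the median log2 fold change was 0.28. By edgeR 0 of them were called and 2 had an unadjusted p under 0.05, and DESeq2 and limma-voom called 0. Those 2 were TXNDC12, a thioredoxin-like oxidoreductase (0.36 ± 0.12), and CNPY2 (0.48 ± 0.16), both with adjusted p = 0.82 and with all minocycline libraries above all vehicle libraries. Of 27 tested further ERAD genes, 20 were fitted higher (median 0.16). RHBDD1, an ER rhomboid protease, averaged 29.1 ± 1.69 CPM in minocycline cells and 18.0 ± 1.93 CPM in vehicle cells, a log2 fold change of 0.69 ± 0.15 (adjusted p = 0.379). DESeq2 called RHBDD1 as the 1 gene of this list, where it called 0.302% of all genes, and limma-voom called 0. RHBDD1 was called in 2 further alternatives of the 18, at adjusted p = 0.0293 with a surrogate variable and at adjusted p = 0.00402 with vehicle replicate 1 left out, and its adjusted p reached 1 in others. By edgeR 1 gene of the list had an unadjusted p under 0.05, against 4.7% of all genes. MAN1B1, a mannosidase of the same route, showed 0.29 ± 0.14 (adjusted p = 0.82).

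The 28 other genes of the translocon and signal peptide machinery had a median of 0.04, with 15 fitted higher and 13 lower. The 26 tested genes of COPII coats and cargo receptors had a median of 0.05, with 17 higher and 9 lower, and the 13 tested genes of sensor processing and other ER-bound factors had a median of 0.08, with 8 higher and 5 lower. In these 3 lists edgeR, DESeq2 and limma-voom called 0 genes, and 0, 1 and 1 had an unadjusted p under 0.05 in edgeR. The members with the smallest p were SEC61A2 (0.47 ± 0.22) and the membrane insertase subunit EMC1 (0.46 ± 0.23), PREB (-0.29 ± 0.13) and the cargo receptor TMED10 (0.37 ± 0.17), and MBTPS2, the protease that finishes the cut of ATF6 (0.76 ± 0.30), with the ATF6-related factor CREB3L2 (0.27 ± 0.12). All 6 had an adjusted p of 0.82.

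Some levels are uncertain because counts may be shared with other genes, since nothing in the labels or headers says whether reads were counted by strand. Exon bases overlap those of another gene in 16 of the 36, by 88.8% of the canonical transcript in DERL3 (with SMARCB1 on the opposite strand), 45.3% in PDIA6 (with ATP6V1C2), 27.5% in DNAJB11, 26.1% in OS9 and 21.7% in P4HB. XBP1, HERPUD1, ATF6, HSPA5, SDF2L1 and SEC61B have no such overlap. The processed copy PDIA3P1 had 5.15% as many counts as PDIA3, and copies of HSPA5 and XBP1 had under 1% as many.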

How the data were processed

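Gene counts of 6 total RNA libraries of HEK293 cells (100 µM minocycline or vehicle, 12 h, 3 each) were used as the authors deposited them, as whole-number counts per gene. The build is hg19, per the submitters' processing notes, and the aligner and counter were not named there. Of 57820 rows, 55538 had a symbol in the annotation. The members and lists were chosen with earlier results of these data known. Groups came from the labels.

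Genes kept by filterByExpr (17225) were scaled by TMM and tested with edgeR 4.0.16 (R 4.3.3) by the quasi-likelihood test, without a block, two-sided, with Benjamini-Hochberg adjustment over all of them. SE is the log2 fold change over the root of F. On simulated counts for this comparison (17225 genes, 200 changed) the test recovered 13.4% of 1.5-fold, 70.1% of 2-fold and 100% of 4-fold changes, with 8.96% false calls. Genes were drawn independently there and only genes with higher counts were changed. The shift of many genes together in vehicle replicate 1 was not simulated, so these rates may not hold for the real counts. Fully described were the 3 genes of smallest p in each role and those whose groups did not overlap; other choices are stated. Alternatives were DESeq2 1.42.0 and limma-voom (limma 3.58.1) in place of edgeR, scaling by library size, by RLE or by upper quartile, other filters, a minimum fold, a replicate block, 1 surrogate variable (sva 3.50.0), a length and GC correction (spline with 4 degrees of freedom per library, 16757 genes with values and all 36 members), and each library left out. The replicate number is the labelled batch, which is where the pairing comes from. Residual correlations of same-numbered libraries were -0.05, -0.29 and 0.30, and minocycline replicate 2 correlated best with vehicle replicate 1 (0.50). Differences between single libraries used log2(CPM + 0.5). Names, lengths and GRCh37 positions came from GENCODE v44 lifted to GRCh37, start regions from RefSeq (GRCh38.p14).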

Additional observations from a re-analysis of the deposited data

How the results depend on the processing

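Of the 36 ER genes, 0 were called in the main analysis, 2 with 1 surrogate variable (XBP1 and HERPUD1, where 0.528% of all genes were called), and 0 to 22 when a library was left out. Only leaving out vehicle replicate 1 gave such calls. Over all genes the count of 9 became 91 with 1 surrogate variable, 50 with DESeq2, 26 with the length and GC correction, 3 with a minimum fold of 1.5, 94 with no filter on low counts, and 1 to 3154 with a library left out. With the replicate block it was 13, and 35 with that block and the length and GC correction. The replicate block changed no call among the 36, whose median log2 fold change was then 0.29.

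Of the 36 genes, 28 kept the sign of their log2 fold change in all 18 alternatives. Over 864 pairs of a named gene and an alternative, 787 kept direction and side of the threshold, 42 passed it newly (32 of these without vehicle replicate 1), 3 no longer passed (all CHAC1) and 32 turned sign. The genes that turned sign had log2 fold changes of -0.03 to 0.20 in the main analysis. With 1 surrogate variable the log2 fold change was -0.06 for CALR, -0.03 for DNAJC3, -0.00 for HSP90B1, -0.03 for PDIA4, -0.04 for SEC24D and 0.16 for DERL3. With the length and GC correction, DERL2 was at -0.11, DERL3 at 0.08 and SEC24D at -0.05, and with the replicate block added these were -0.11, 0.08 and -0.06. DERL3 was at 0.06 with library size scaling, which moved the median of all genes to 0.08. DERL2 was at -0.02 with DESeq2, RLE factors and no filter, and at -0.00 with limma-voom, upper-quartile factors and the replicate block. Leaving out 1 library gave -0.02 to 0.22 for CALR, -0.01 to 0.04 for CRELD2, -0.10 to 0.08 for DERL2, -0.18 to 0.06 for DERL3, -0.00 to 0.55 for DNAJC3, -0.03 to 0.50 for HSP90B1, -0.03 to 0.15 for PDIA4 and -0.04 to 0.20 for SEC24D. The cause was not tested. Groups of 3 limit what small changes this design can show.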

Other observations

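In the PERK arm list, values of further genes beyond CHAC1 and SESN2 were as follows. PERK activity was not measured, and whether PERK acted on these genes was not tested. ATF4, the transcription factor of the arm, averaged 1160 ± 159 CPM in minocycline cells and 691 ± 143 CPM in vehicle cells (SD, n = 3 each), a log2 fold change of 0.75 ± 0.19 that did not pass (edgeR, adjusted p = 0.81). TRIB3, a pseudokinase induced by ATF4, averaged 120 ± 18.9 CPM with minocycline and 67.8 ± 19.1 CPM with vehicle (0.83 ± 0.22, adjusted p = 0.82). In both genes every minocycline library was above every vehicle library. ATF4 passed in 5 of 18 alternatives, with adjusted p = 3.48e-05 with 1 surrogate variable, 0.0473 with the length and GC correction and 0.012 without vehicle replicate 1, and adjusted p over the 18 reached 1. TRIB3 passed in 4 of 18, with adjusted p = 1.66e-05 with 1 surrogate variable and 0.00913 without vehicle replicate 1, and likewise reached 1. DDIT3, the gene of the stress factor CHOP, averaged 24.1 ± 6.93 CPM with minocycline and 18.1 ± 6.81 CPM with vehicle, with overlapping groups (0.41 ± 0.30, adjusted p = 0.82), and passed in 1 of 18 alternatives, with 1 surrogate variable (adjusted p = 0.00556). The PERK gene itself, EIF2AK3, averaged 14.7 ± 2.56 CPM with minocycline and 11.6 ± 4.64 CPM with vehicle (0.34 ± 0.27, adjusted p = 0.825), and there vehicle replicate 1 lay above the other vehicle libraries by 0.89 on the log2 scale. PPP1R15A, which restores translation, was the 1 gene of the arm fitted lower, at 69.7 ± 3.80 CPM with minocycline and 81.4 ± 17.9 CPM with vehicle (-0.22 ± 0.17, adjusted p = 0.825). VLDLR (0.93 ± 0.26), NUPR1 (0.86 ± 0.42) and PPP1R15B (0.28 ± 0.19) each had adjusted p = 0.82. ATF3 was at 0.13 ± 0.12 (adjusted p = 0.84). Among these last genes only VLDLR had groups that did not overlap. Vehicle replicate 1 differed from the mean of the other vehicle libraries by 0.93 in VLDLR, 0.59 in PPP1R15B, -0.22 in ATF3 and -1.59 in NUPR1 (log2).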
